A study of Homo sapiens with 21 samples.

Results

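The genes described here are targets of interferon: ISG15, the MX GTPases MX1 and MX2, the ISG15 pathway genes USP18, HERC5 and HERC6, and the antiviral effectors RSAD2, BST2, IFI6 and IFI27. They were chosen from measured values of these arrays, because ISG15 and MX1 had been seen not to rise in untreated APP-V717F cells while other such targets did. Of the 10 genes, 9 had a probe set annotated to that symbol alone, and the brightest such probe set stood for the gene, which gave 9 of the 18132 genes measured. USP18 appears on this platform only in a probe set shared with 4 other symbols, so its own level was not analysed here. The split into 7 genes that were higher in vehicle-treated APP cells and 2 that were not is therefore part of the choice and not a finding.

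Gene expression was measured on 21 Affymetrix PrimeView arrays in SH-SY5Y, a line of sympathetic neuroblasts from a human neuroblastoma. Mutated cells carried APP-V717F, a change in the amyloid precursor protein found in inherited Alzheimer's disease, and are called APP cells; WT cells were wild type. All cells had been differentiated for 3 to 4 days with retinoic acid (10 µM) and the neurotrophin BDNF (50 ng/mL), and were exposed for 72 h. The APP cells received AG494 (APP_AG494), NOSCA (APP_NOSCA) or the vehicle, 0.1% DMSO (APP_DMSO), and the WT cells AG494 (WT_AG494), NOSCA (WT_NOSCA), PALBO (WT_PALBO) or vehicle (WT_DMSO), with 3 arrays in each of the 7 groups. AG494 inhibits the tyrosine kinase of the EGF receptor. The names NOSCA and PALBO stand as the labels write them, no dose of any compound is given, and no APP cells with PALBO were analysed here. The labels name a single mutated line and do not say whether it is 1 clone or how the mutation was made, so what is called genotype below is the difference between 2 cell lines. The series describes 3 independent experiments, but the labels do not say that the arrays of a group came from separate cultures, and p-values then measure only the spread between these arrays. In bulk RNA, fewer cells that express a gene and less of its RNA per cell cannot be told apart.

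Type I interferons act through a cell surface receptor and the kinases JAK1 and TYK2. The signal ends in a transcription factor complex with IRF9, which binds the interferon-stimulated response element (ISRE) in the promoters of its targets. ISG15 is a small ubiquitin-like protein that UBA7, UBE2L6 and a ligase such as HERC5 attach to other proteins, and that USP18 removes. Neurons and neuroblasts carry the receptor and respond to interferon as most cells do.

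The stretches before the transcription start are shown for 5 genes because they carry, or in 1 case lack, the element through which this pathway acts. They are RefSeq sequences of GRCh38.p14, written 5′ to 3′ in the direction of the gene, with matches to the ISRE core in capitals. The core was searched as a pair of GAAA blocks with NN between them, or of TTTC blocks for the other strand. ISG15 did not rise in APP cells, and the other 4 shown did.
ISG15 (chr1:1013297-1013496, plus strand): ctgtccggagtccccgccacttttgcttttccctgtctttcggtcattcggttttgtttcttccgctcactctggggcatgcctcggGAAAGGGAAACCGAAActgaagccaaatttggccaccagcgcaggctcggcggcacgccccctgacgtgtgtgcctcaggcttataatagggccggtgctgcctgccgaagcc
HERC5 (chr4:88456984-88457063, plus strand): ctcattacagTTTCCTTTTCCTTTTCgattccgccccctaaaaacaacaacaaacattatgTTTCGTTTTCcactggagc
HERC6 (chr4:88378652-88378851, plus strand): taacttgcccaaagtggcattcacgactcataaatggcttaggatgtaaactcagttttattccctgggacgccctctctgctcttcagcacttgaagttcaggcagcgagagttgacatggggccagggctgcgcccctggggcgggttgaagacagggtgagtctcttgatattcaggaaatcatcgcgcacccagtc
BST2 (chr19:17405631-17405830, minus strand): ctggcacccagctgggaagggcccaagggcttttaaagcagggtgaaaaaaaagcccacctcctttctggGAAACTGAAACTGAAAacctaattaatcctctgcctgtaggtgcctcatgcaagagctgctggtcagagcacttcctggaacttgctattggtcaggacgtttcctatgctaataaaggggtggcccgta
IFI6 (chr1:27672271-27672352, minus strand): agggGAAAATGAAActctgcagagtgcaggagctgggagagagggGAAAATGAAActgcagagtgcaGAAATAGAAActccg
A window from 250 bases before to 50 bases after the start was given for 8 of the 10 genes, with none given for MX2 and USP18. The ISRE core stood in 7 of the 8, all but HERC6, against 4.38% of the 27305 genes with a window. ISG15 held 2 overlapping matches, which began 113 and 107 bases before its start. MX1 held a match 12 bases after one of its starts and another 196 bases before a second start. The core of the gamma-activated site, TTCNNNGAA, which reads the same on both strands, stood in the windows of BST2, IFI27 and MX1, against 9.38% of all genes. A match to it overlapped an ISRE match by a few bases in each of the 3. These matches are letters in a window and do not show that a factor bound there, and the lack of a match in HERC6 says nothing about its regulation.

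Over all arrays the differences between APP and WT cells set the genes apart, as the plot of their levels shows. For HERC5, HERC6, RSAD2, BST2, IFI6, IFI27 and MX2 each of the 9 APP arrays lay above each of the 12 WT arrays. This holds for 1.58% of the 18132 genes, and since the vehicle arrays that served to choose the genes are among them, nothing is read from this count. ISG15 and MX1 overlapped between the cell lines. Levels are log2 intensities after RMA normalisation, so that a difference of 1 is a doubling, and levels of single genes are not compared with each other, because each probe set has its own brightness.

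**Figure D1:**
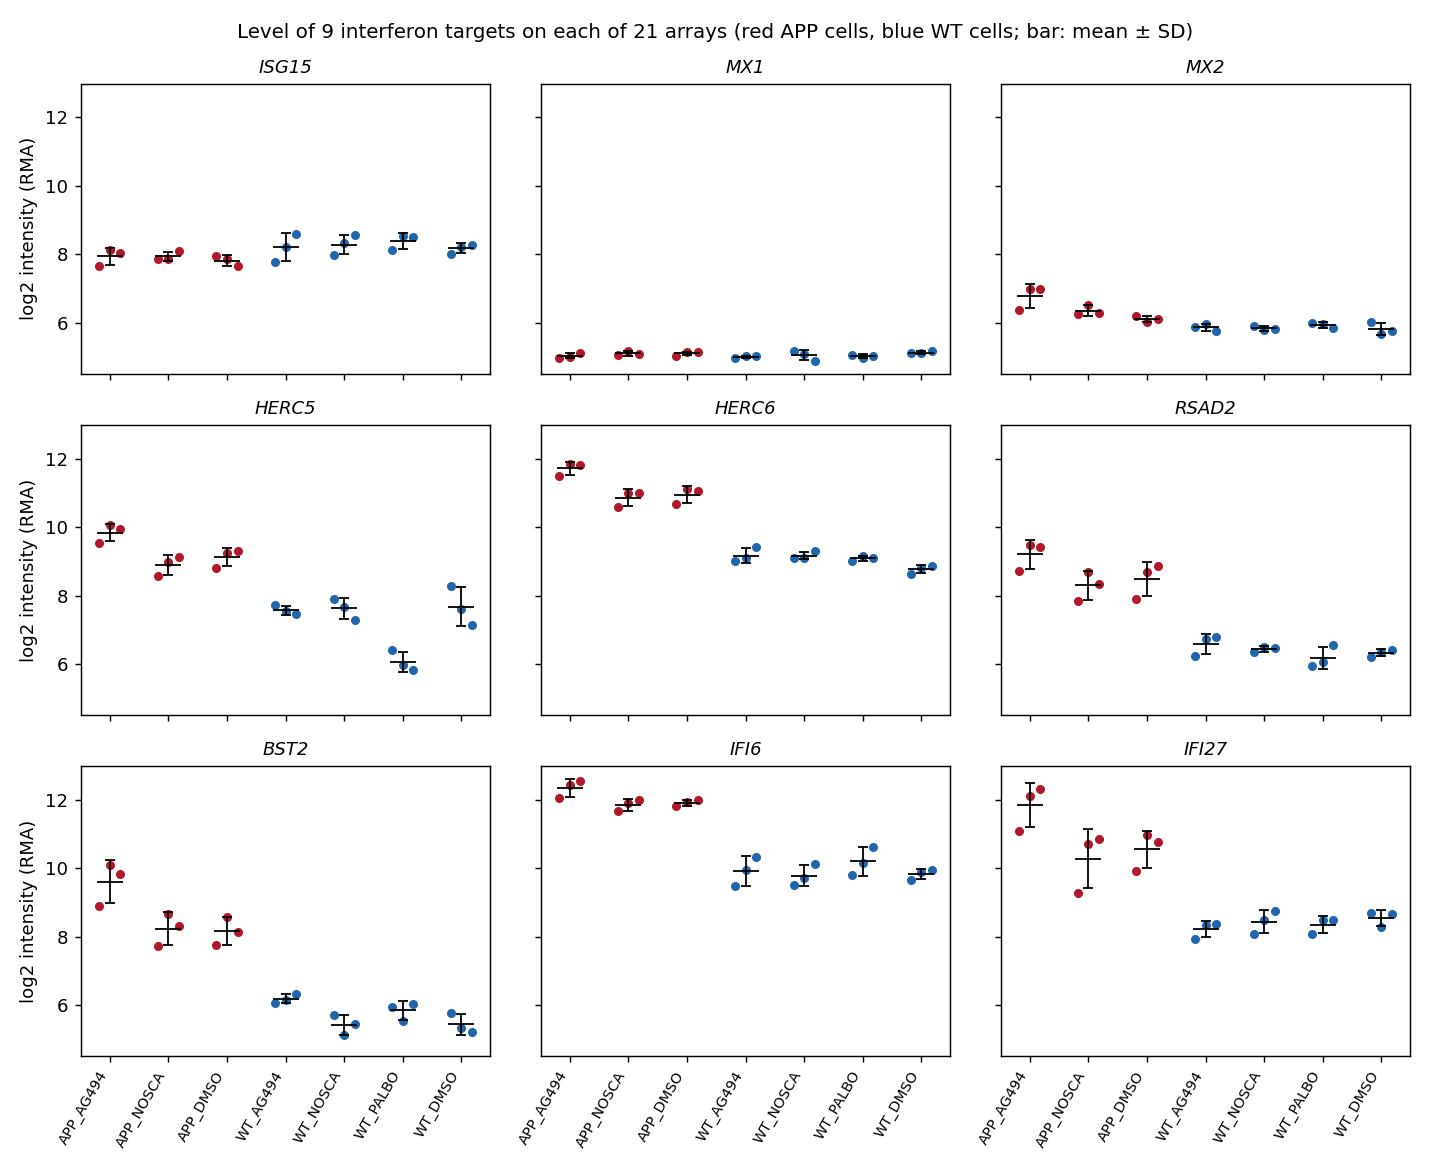
Log2 intensity of each of the 9 measured genes (vertical axis) on each of the 21 arrays by group (horizontal axis), with APP cells in red, WT cells in blue, and bars for the mean and SD of 3 arrays. ISG15 and MX1 overlap between APP and WT cells, and in the other 7 panels all APP arrays lie above all WT arrays, with the APP_AG494 arrays highest on average.

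The genotype difference under vehicle chose these genes and is given without a test. It was -0.36 for ISG15 and -0.02 for MX1, against 0.28 for MX2, 1.44 for HERC5, 2.18 for HERC6, 2.15 for RSAD2, 2.72 for BST2, 2.08 for IFI6 and 2.00 for IFI27, on the log2 scale. The same difference was tested on arrays other than the vehicle ones, those of cells kept with AG494 and those of cells kept with NOSCA. Earlier results of these data were known at the choice, and each probe set was picked by its mean over all arrays. These tests may therefore not be fully independent of the choice. Under AG494, 7 of the 9 genes were called higher in APP cells and none lower, at an adjusted p under 0.05 in limma, while 4.1% of all genes were called higher. Under NOSCA the same 7 were called higher, against 3.56% of all genes. For each of these 7 the APP arrays lay above the WT arrays in both conditions, as they did for 12.6% of all genes under AG494 and 13% under NOSCA. The median difference of the 9 was 2.42 under AG494 and 1.70 under NOSCA, and over all genes it was 0.02 in both. AG494 and NOSCA arrays are separate samples, but they come from the same 2 cell lines as the vehicle arrays, so these are repeats of the measurement and not of the mutation.

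ISG15, the ubiquitin-like modifier, had a lower mean in APP than in WT cells under every condition, and none of these differences that was tested was called. Its log2 intensity was 7.67, 8.13 and 8.03 in APP_AG494, 7.86, 7.87 and 8.10 in APP_NOSCA, and 7.94, 7.87 and 7.65 in APP_DMSO. In WT cells it was 7.79, 8.23 and 8.61 in WT_AG494, 7.99, 8.34 and 8.56 in WT_NOSCA, 8.14, 8.54 and 8.52 in WT_PALBO, and 8.02, 8.22 and 8.29 in WT_DMSO. The 4 WT groups had the highest means and the 3 APP groups the lowest, and the arrays overlapped between APP and WT cells under AG494 and NOSCA. Under DMSO they did not overlap, but those arrays served to choose the genes, so nothing is read from this. Each of the 3 runs of title numbers holds 1 array of every group. Within each run ISG15 was lower in APP than in WT cells under AG494 and under NOSCA, with differences from -0.58 to -0.1. The difference was -0.27 under AG494 (SE 0.18, 95% interval -0.65 to 0.11, adjusted p = 0.5 in limma) and -0.35 under NOSCA (SE 0.18, interval -0.73 to 0.03, adjusted p = 0.32). With the run as a block in the limma fit, the adjusted p was 0.21 under AG494 and 0.093 under NOSCA, again without a call. Single arrays moved the AG494 value, which was -0.48 without WT_AG494 replicate 1, -0.13 without APP_AG494 replicate 1 and -0.07 without WT_AG494 replicate 3. A rise above 0.11 under AG494 or 0.03 under NOSCA lies outside these intervals, whereas the lowest interval bound among the 7 genes that rose was 0.63 under AG494 and 0.23 under NOSCA, both for MX2. ISG15 rests on 1 probe set, of a middling brightness at which 47% of genes were dimmer.

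MX1, a dynamin-like GTPase that blocks influenza virus among others, was flat and dim. It ranged from 4.99 to 5.18 with a median of 5.09 over the 9 APP arrays and from 4.90 to 5.18 with a median of 5.06 over the 12 WT arrays. The difference was 0.01 under AG494 (95% interval -0.13 to 0.16, adjusted p = 0.96 in limma) and 0.05 under NOSCA (interval -0.09 to 0.20, adjusted p = 0.76). Its only probe set was among the dimmest, with 7.1% of genes below it, and the values carry no detection call. The intervals are those of a dim probe set, whose signal can understate a change of the transcript.

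MX2, the neighbouring gene and a GTPase that restrains HIV-1, was higher in APP cells. Its values were 6.37, 6.98 and 6.98 in APP_AG494 and 6.25, 6.53 and 6.28 in APP_NOSCA, against 5.87, 5.97 and 5.76 in WT_AG494 and 5.91, 5.80 and 5.82 in WT_NOSCA. No APP array overlapped a WT array within a condition. The difference was 0.91 under AG494 (SE 0.13, adjusted p = 1.3e-04 in limma) and 0.51 under NOSCA (SE 0.13, adjusted p = 0.023), the smallest of the 7. The NOSCA call was lost without APP_NOSCA replicate 2, WT_NOSCA replicate 2 or WT_NOSCA replicate 3. A second, dimmer probe set gave 1.29 and 0.76.

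HERC5 and HERC6 are adjacent genes of 1 family. HERC5 is the main ISG15 ligase of human cells, and in the mouse HERC6 holds that role. HERC5 had 9.54, 10.05 and 9.93 in APP_AG494 and 8.58, 8.98 and 9.14 in APP_NOSCA, against 7.73, 7.54 and 7.45 in WT_AG494 and 7.91, 7.67 and 7.30 in WT_NOSCA. HERC6 had 11.49, 11.84 and 11.80 in APP_AG494 and 10.58, 11.00 and 11.00 in APP_NOSCA, against 9.0, 9.09 and 9.42 in WT_AG494 and 9.09, 9.11 and 9.30 in WT_NOSCA. Both genes were higher on every APP array. The difference of HERC5 was 2.27 under AG494 (SE 0.24, adjusted p = 2.8e-06) and 1.27 under NOSCA (adjusted p = 0.0018), and that of HERC6 was 2.54 under AG494 (SE 0.14, adjusted p = 5.0e-10) and 1.70 under NOSCA (adjusted p = 1.2e-07), all in limma. HERC6, whose window held no ISRE core, had the lowest p of the 9 genes in both conditions. The NOSCA call of HERC5 was lost without the second run of arrays or the third (adjusted p = 0.15 and 0.053). Other members of the family, HERC1, HERC2 and HERC4, were not called in either.

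BST2 tethers budding virions to the cell surface. It had 8.89, 10.10 and 9.82 in APP_AG494 and 7.74, 8.66 and 8.32 in APP_NOSCA, against 6.07, 6.16 and 6.33 in WT_AG494 and 5.71, 5.13 and 5.44 in WT_NOSCA. That is 10.7-fold under AG494 (log2 3.42, SE 0.28, adjusted p = 1.0e-07 in limma) and 7.03-fold under NOSCA (log2 2.81, adjusted p = 1.6e-06). Of its 4 probe sets, 3 gave a call in both conditions, but the other called ones gave 2.82 and 3.00 under AG494 and only 1.45 and 1.73 under NOSCA. The dimmest, with a mean of 4.90, gave 0.07 and 0.27 and no call, and the mean of the probe sets gave 2.33 under AG494 and 1.56 under NOSCA. RSAD2, also called viperin, a radical SAM enzyme that makes a chain-terminating nucleotide, had 8.72, 9.47 and 9.43 in APP_AG494 and 7.85, 8.70 and 8.35 in APP_NOSCA, against 6.24, 6.72 and 6.78 in WT_AG494 and 6.35, 6.50 and 6.47 in WT_NOSCA. Its difference was 2.62 under AG494 (SE 0.25, adjusted p = 6.8e-07) and 1.86 under NOSCA (adjusted p = 5.5e-05) in limma, and a second, dimmer probe set gave 2.28 and 1.12. CMPK2, the gene beside RSAD2, was 2.26 higher under AG494 (adjusted p = 4.9e-04) and had a difference of 1.11 under NOSCA that was not called (adjusted p = 0.091).

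IFI6 and IFI27 encode small hydrophobic membrane proteins of a common family. IFI6 had 12.05, 12.42 and 12.54 in APP_AG494 and 11.66, 11.91 and 11.99 in APP_NOSCA, against 9.47, 9.94 and 10.34 in WT_AG494 and 9.50, 9.71 and 10.11 in WT_NOSCA. IFI27 had 11.10, 12.10 and 12.31 in APP_AG494 and 9.29, 10.70 and 10.85 in APP_NOSCA, against 7.94, 8.34 and 8.36 in WT_AG494 and 8.08, 8.48 and 8.76 in WT_NOSCA. In every APP group the first replicate had the lowest IFI27 value. The difference of IFI6 was 2.42 under AG494 (SE 0.21, adjusted p = 2.4e-07 in limma) and 2.08 under NOSCA (adjusted p = 2.1e-06). IFI27 differed 12.3-fold under AG494 (log2 3.62, SE 0.36, adjusted p = 1.2e-06), the widest of the 9, and 3.58-fold under NOSCA (log2 1.84, adjusted p = 0.0026), a call lost without the second run or the third (adjusted p = 0.18 and 0.069). Its relatives on either side on chromosome 14, IFI27L1 and IFI27L2, were not called in either condition.

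**Figure D2:**
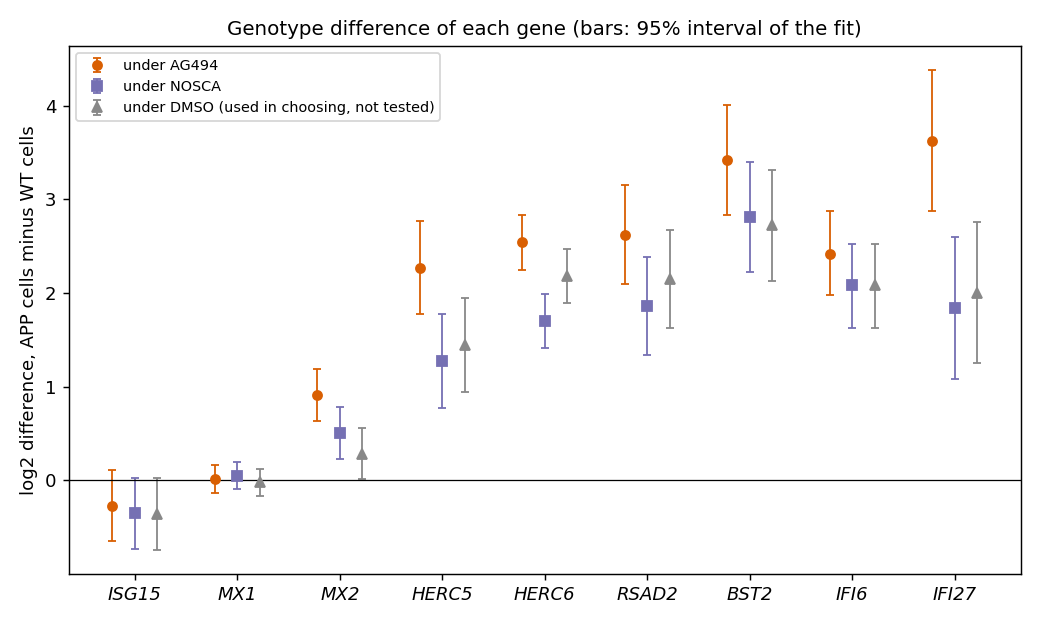
Log2 difference of APP minus WT cells for each gene (vertical axis; genes on the horizontal axis) under AG494, NOSCA and DMSO, with the 95% interval of the fit. Under AG494 and NOSCA the intervals of ISG15 and MX1 include 0 and those of the other 7 lie above 0; the grey DMSO values chose the genes and are shown as a description.

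AG494 raised part of the set further in APP cells. Against APP_DMSO, 4 of the 9 genes were called higher and none lower, where 1.99% of all genes were called higher: MX2 by 0.66 (SE 0.13, adjusted p = 0.0055), HERC6 by 0.76 (SE 0.14, adjusted p = 0.0027), BST2 by 1.45 (SE 0.28, adjusted p = 0.0048) and IFI27 by 1.29 (SE 0.36, adjusted p = 0.047), in limma. The vehicle arrays had 6.20, 6.02 and 6.12 for MX2, 10.67, 11.12 and 11.05 for HERC6, 7.76, 8.59 and 8.14 for BST2, and 9.92, 10.96 and 10.76 for IFI27. Every APP_AG494 array lay above every APP_DMSO array for these 4 genes and for HERC5 and IFI6, as it did for 9.06% of all genes. The differences of HERC5 (0.72, adjusted p = 0.10), RSAD2 (0.73, adjusted p = 0.12) and IFI6 (0.42, adjusted p = 0.35) were not called. ISG15 had 0.12 with an interval of -0.26 to 0.50, and MX1 -0.08 with -0.22 to 0.07. The APP_DMSO arrays also served to choose the genes, so these responses are not independent of the choice.

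Arrays whose titles fall in the same run of numbers deviated together, and with the run as a replicate block 6 of the 9 genes were called higher (4.72% of all genes), with RSAD2 (adjusted p = 0.0036) and IFI6 (adjusted p = 0.016) added. The IFI27 call was lost without APP_AG494 replicate 2 or 3, or without APP_DMSO replicate 1 or 3. With a whole run left out, which leaves 2 arrays in a group, 6 genes were called without the first run and none without the second or the third. The share of all genes called in these smaller fits is not given, so the drop cannot be ascribed to these genes. CD68, a lysosomal protein used as a macrophage marker, was 0.52 higher in APP_AG494 (adjusted p = 0.0024), while the other 12 of 13 immune markers were not called. PTPRC, which defines leukocytes, averaged 4.91 in APP_AG494 and 5.04 in APP_DMSO, near the low end of the table.

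No response to NOSCA was called in APP cells. In limma 0% of the table passed (0 of 18132 genes), and none of the 9 reached an unadjusted p under 0.05. Their differences ran from -0.27 for IFI27 to 0.24 for MX2. For HERC6 the 95% interval was -0.37 to 0.21 and for BST2 -0.51 to 0.67, so that a rise of BST2 above 0.67 lies outside, which includes its value under AG494, and a smaller one does not. Set directly against APP_NOSCA, APP_AG494 was called higher for 3 of the 9, where 0.822% of all genes were: HERC6 by 0.84 (adjusted p = 0.0033), BST2 by 1.37 (adjusted p = 0.015) and IFI27 by 1.56 (adjusted p = 0.033). With the replicate block 6 were called higher (2.82% of all genes), which added HERC5 (adjusted p = 0.028), RSAD2 (adjusted p = 0.0016) and IFI6 (adjusted p = 0.013). Only 1 was called without APP_AG494 replicate 2, APP_AG494 replicate 3 or APP_NOSCA replicate 1, and 5 without APP_AG494 replicate 1. For these fits, too, the share of all genes called is not given.

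In the fit without the replicate block, AG494 and NOSCA left all 9 uncalled in WT cells. The WT_DMSO arrays also served to choose the genes, so no comparison with them, with PALBO included, is independent of the choice. In limma 0 genes of the set passed with AG494, where 0.254% of all genes were called in either direction, and 2 had an unadjusted p under 0.05: BST2, with 6.07, 6.16 and 6.33 in WT_AG494 against 5.78, 5.34 and 5.21 in WT_DMSO (0.75, adjusted p = 0.41), and HERC6 (0.40, adjusted p = 0.33). With NOSCA 0 passed, against 0.0165% of all genes, and HERC6 alone had an unadjusted p under 0.05 (0.40, adjusted p = 0.52). HERC6 had 9.0, 9.09 and 9.42 in WT_AG494 and 9.09, 9.11 and 9.30 in WT_NOSCA, against 8.64, 8.82 and 8.85 in WT_DMSO. It was called in limma with the replicate block in both (adjusted p = 0.019 with AG494 and 0.047 with NOSCA), where 1.09% and 0.243% of all genes were called higher. Between WT_AG494 and WT_NOSCA 0 of the 9 were called in limma, against 0.011% of all genes, with 1 at an unadjusted p under 0.05, BST2 at 0.76. The share of all genes with an unadjusted p under 0.05 is not given, so the counts at that threshold are not read as a result.

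Whether the response to AG494 differed between the cell lines was not tested against vehicle, since that difference contains the contrast that chose the genes. With NOSCA in place of vehicle it could be: the genotype difference under AG494 minus that under NOSCA had a median of 0.60 over the 9 and 0 over all genes. In limma 0 of the 9 were called, where 0.0441% of all genes were. Of the 9, 5 had an unadjusted p under 0.05, but the share of all genes there is not given, so nothing is read from this count. IFI27 had 1.78 (SE 0.51, adjusted p = 0.63), HERC5 1.00 (SE 0.34, adjusted p = 0.85) and HERC6 0.84 (SE 0.20, adjusted p = 0.31). With the replicate block HERC6 (adjusted p = 0.0057) and IFI27 (adjusted p = 0.04) passed, against 0.121% of all genes called higher.

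PALBO, given to WT cells, lowered HERC5. HERC5 had 6.40, 5.97 and 5.82 in WT_PALBO, against 8.28, 7.60 and 7.14 in WT_DMSO. Every WT_PALBO array lay below every other array of the study for this gene, although the vehicle arrays spread by more than 1. The share of all genes set apart in this way is not given, so nothing is read from this. The difference was -1.61 (SE 0.24, 95% interval -2.11 to -1.11, adjusted p = 0.00035 in limma), and HERC5 was the only one of the 9 called, with 3.87% of all genes called lower. Its neighbour HERC6 had 0.32 (adjusted p = 0.21) and IFI6 had 0.36 (adjusted p = 0.41). With the replicate block both were called higher (adjusted p = 0.014 for HERC6 and 0.032 for IFI6), where 7.7% of all genes were. HERC5 was also lower than in WT_AG494 (-1.51, adjusted p = 0.0012) and WT_NOSCA (-1.56, adjusted p = 0.0011), as the only one of the 9 called in each, against 2.05% and 2.1% of all genes called lower. Against WT_NOSCA, IFI6 was called higher with the replicate block (0.42, adjusted p = 0.023), as were 3.17% of all genes. Without the second run of arrays the PALBO difference of HERC5 was no longer called (adjusted p = 0.069). The doses are not known, so the compounds cannot be ranked by strength.

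**Figure D3:**
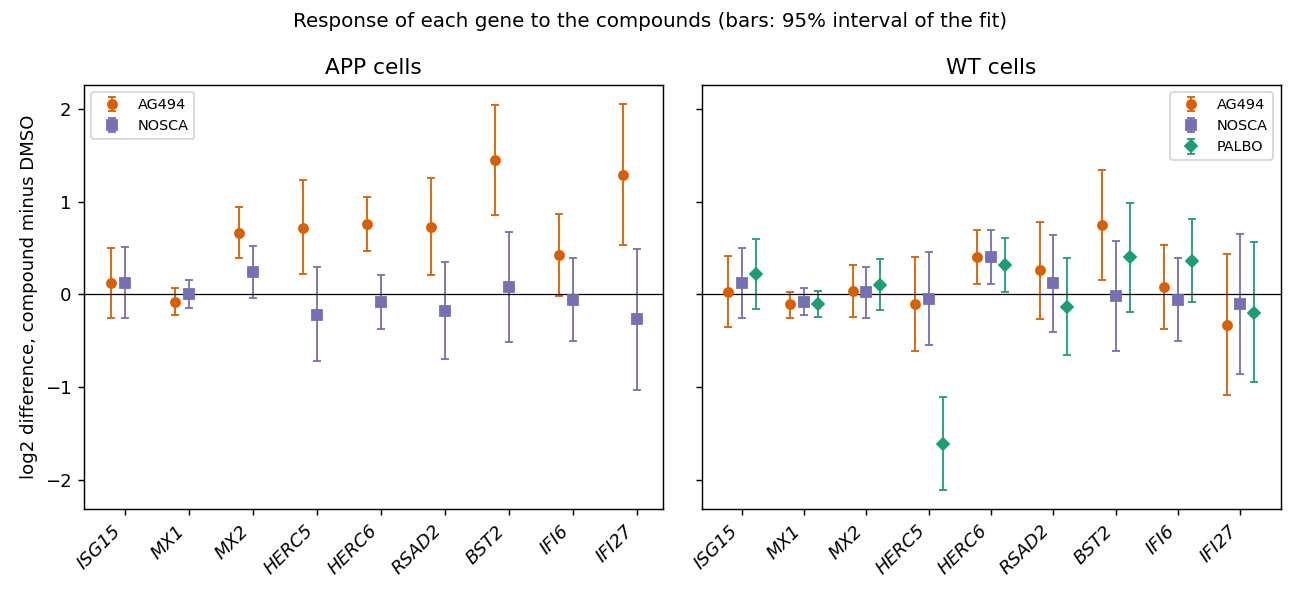
Log2 difference of compound minus DMSO for each gene (vertical axis; genes on the horizontal axis) in APP cells on the left and WT cells on the right, with the 95% interval of the fit. The intervals are not adjusted for the number of genes. With AG494 they lie above 0 in APP cells for MX2, HERC5, HERC6, RSAD2, BST2 and IFI27, of which HERC5 and RSAD2 were not called. NOSCA stays near 0 there. In WT cells the intervals of HERC6 and BST2 with AG494, and of HERC6 with NOSCA and PALBO, also lie above 0. HERC5 falls by 1.61 with PALBO in WT cells.

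The other genes of the pathway were taken from lists, and counted without a set test, beside the 4.1% of all genes called higher under AG494 and the 3.56% under NOSCA. Of the 4 genes that conjugate ISG15, TRIM25, a ligase, was 1.78 higher in APP cells under AG494 (adjusted p = 2.3e-09) and 1.31 under NOSCA (adjusted p = 1.5e-07). UBE2L6, the conjugating enzyme, was 0.63 higher under AG494 (adjusted p = 1.0e-06) and 0.33 under NOSCA (adjusted p = 0.0016). UBA7, the activating enzyme, was called under AG494 alone (0.53, adjusted p = 0.005), with -0.27 under NOSCA (adjusted p = 0.19), and AG494 raised it by 0.80 over vehicle in APP cells (adjusted p = 0.00046). ARIH1 was not called. So 3 of 4 were called higher under AG494 and 2 of 4 under NOSCA, around a modifier whose own transcript was not; p-values are limma's.

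Among 16 measured genes of interferon signalling, 4 were higher in APP cells under AG494 and under NOSCA. They were the transcription factors IRF7 (1.62 and 1.15), IRF9 (1.43 and 1.31) and IRF1 (1.30 and 0.85), and SOCS3, a feedback inhibitor of JAK signalling (0.68 and 0.72). IFNGR2, a chain of the interferon gamma receptor, was lower under NOSCA (-0.35, adjusted p = 0.014 in limma). None of the 17 measured interferon genes was called in either condition. Their probe sets were dim, with means over all arrays from 4.61 for IFNA7 to 6.13 for IFNL1. Such signals can understate a change, so the lack of a call does not show that no interferon gene was induced. Of 44 other interferon-induced genes, 32 were higher under AG494 and 28 under NOSCA, and none was lower, beside the same 4.1% and 3.56% of all genes called higher, with medians of 1.84 and 1.07. IFIT1, which binds viral RNA caps, was 4.59 higher under AG494 and 3.45 under NOSCA, and IFITM1, a membrane protein that hinders viral entry, 4.73 and 3.91. ISG15 and MX1 were thus not alone in being uncalled: OAS3, one of the synthetases of the RNase L pathway, had 0.11 and 0.05. The OAS3 probe set was dim as well, with a mean of 5.93, and can understate a change. IFITM2, whose probe set was bright (mean 11.54), was uncalled too, with 0.25 under AG494 and 0.01 under NOSCA. In APP cells 26 of the 44 rose with AG494, against 1.99% of all genes, and 0 with NOSCA. In WT cells PALBO raised 3 of 44, PARP9, DTX3L and IFI44, where 3.11% of all genes were called higher, and lowered none. AG494 raised PARP9 alone of the 44 there (0.71, adjusted p = 0.014), where 0.165% of all genes were called higher.

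The genes most like ISG15 across arrays are given as a description only. Over 21 arrays, which share a platform and fall into 2 cell lines, the correlation of ISG15 with each of the other 8 genes lay between -0.69 and -0.35. Over the 9 APP arrays alone it was positive with each of the 7 genes that rose, between 0.22 and 0.56, and -0.12 with MX1. The genes most like ISG15 were NMNAT2 (r = 0.861), ACHE, PODXL2, JUNB and HOXB8. Those most like the mean of the 7 were SP110 (r = 0.993), OAS1, TAP1, TRIM25 and RIGI. Within groups, after each group mean was taken off, ISG15 had r = 0.86 with IFI6, 0.60 with HERC6, 0.47 with IFI27, 0.41 with RSAD2, 0.14 with BST2, 0.03 with MX2, -0.25 with MX1 and -0.39 with HERC5, over the same 21 arrays. Part of this is shared by run, since ISG15 lay 0.20 below its group means in the first run of arrays, and RSAD2, IFI6 and IFI27 lay 0.33, 0.27 and 0.45 below theirs there.

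**Figure D4:**
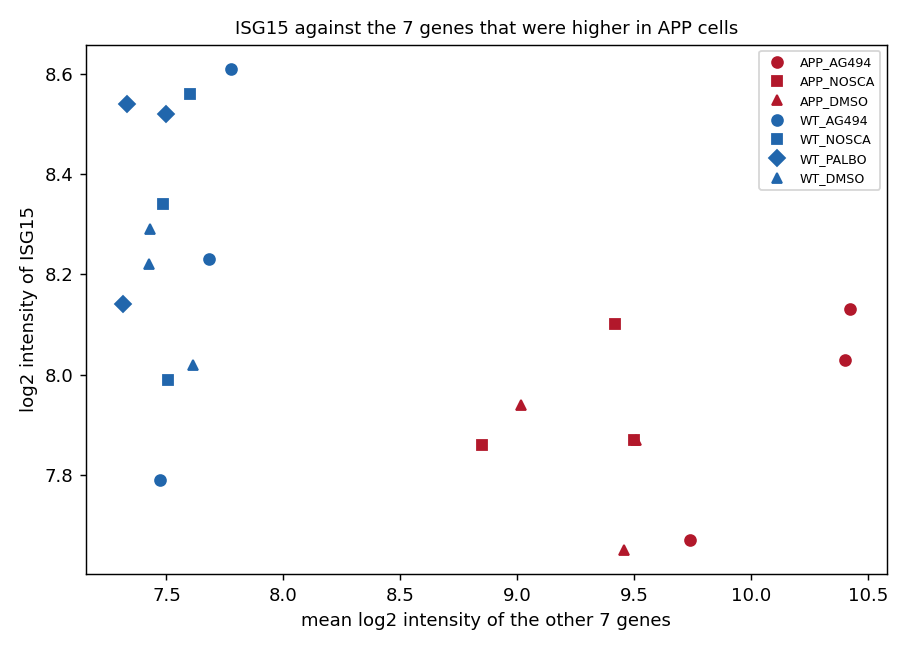
Log2 intensity of ISG15 (vertical axis) against the mean log2 intensity of MX2, HERC5, HERC6, RSAD2, BST2, IFI6 and IFI27 (horizontal axis), with 1 point for each of the 21 arrays, APP cells in red and WT cells in blue. The APP arrays lie to the right, at ISG15 values of 7.65 to 8.13, inside or below the 7.79 to 8.61 of the WT arrays.

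Markers of the labelled cell type were bright as a group, those of immune cells dim and those of fibroblasts in between, a coarse check across probe sets. Single genes ran against this order: COL3A1, a fibroblast marker, had a mean of 13.32 over all arrays, and TH, a neuroblast marker, 8.22. The 11 measured sympathetic neuroblast markers averaged between 11.97 and 12.13 on the APP arrays and between 11.93 and 12.27 on the WT arrays. Single ones differed between the lines under AG494 and NOSCA: CHGA was higher in APP cells (0.56 and 0.60) and ELAVL4 lower (-0.32 and -0.38), and DBH was lower under NOSCA (-0.22). The 13 immune markers averaged between 5.68 and 5.79 on the APP arrays and between 5.64 and 5.75 on the WT arrays, and CD68 was the only one called higher in APP cells, by 0.45 under AG494 (adjusted p = 0.0033 in limma). The 6 Schwann and glial markers averaged between 6.35 and 6.66 on the APP arrays and between 6.59 and 6.84 on the WT arrays, with S100B lower in APP cells (-0.77 and -1.20). The 7 fibroblast markers averaged between 9.16 and 9.48 on the APP arrays and between 8.95 and 9.66 on the WT arrays, with COL1A1 lower in APP cells (-0.92 and -1.0) and DCN higher under NOSCA (1.28). Their part in the differences above was not tested. The APP transcript averaged between 12.29 and 12.57 in the 7 groups, and its probe sets do not report the mutation. No pair of arrays was identical.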

How the data were processed

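Total RNA, 25 ng a sample, was hybridised to PrimeView arrays. The authors deposited log2 intensities. Per the submitters' processing notes RMA and affy were used, with no version given, and the values were taken as deposited. Of 49372 probe sets, 44988 had 1 gene symbol, and the one with the highest mean stood for its gene (18132 genes, no filter on dim genes). limma 3.58.1 in R 4.3.3 was fitted over all 21 arrays with 1 coefficient per group (14 residual, 4.27 prior degrees of freedom). Two-sided p-values were adjusted over all genes of a comparison (Benjamini-Hochberg), and a gene is called below 0.05. The scripts were tested on simulated data. Genes and lists were chosen with earlier results of these data known. All 9 measured genes are named, with examples from the lists, gene neighbours and the 5 genes most like ISG15. The examples are not always the list genes of the lowest p, and IFITM1, IFITM2, OAS3, COL3A1 and TH were not among those.

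The title numbers form 3 runs with 1 array of each group. Deviations from group means correlated between 0.226 and 0.685 within runs (63 pairs) and between -0.529 and 0.089 across them (126 pairs), so the runs pair the arrays. The fit with the run as a replicate block is given where it changes a call, and for the genotype difference of ISG15. Intensities carry no count, and the number of arrays limits the precision. Other alternatives were other summaries of probe sets, scaling, priors, weights, filters and left-out arrays or runs. Promoter letters came from RefSeq (GRCh38.p14).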

Additional observations from a re-analysis of the deposited data

Results flagged for a closer look

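The HERC6 difference between NOSCA and vehicle had opposite signs in the 2 cell lines, and neither value was called. It was -0.08 in APP cells and 0.40 in WT cells, and within each of the 3 runs of arrays the sign was negative in APP cells and positive in WT cells; the difference itself was not tested, because it contains the contrast that chose the genes.

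The probe set that lists USP18 together with 4 other symbols entered no comparison. Its mean was 10.05 in APP_AG494, 9.39 in APP_NOSCA and 9.49 in APP_DMSO, against 7.66 in WT_AG494, 7.66 in WT_NOSCA, 8.53 in WT_PALBO and 7.72 in WT_DMSO. No gene can be named from it, and WT_PALBO, with 9.08, 8.00 and 8.50, spread more than the other groups.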

How the results depend on the processing

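Counts of called genes depend most on the run of arrays. With the replicate block they were 1 for AG494 in WT cells, 1 for NOSCA in WT cells, 3 for PALBO in WT cells, 6 for AG494 in APP cells, 6 for AG494 against NOSCA in APP cells, 2 for PALBO against NOSCA in WT cells and 2 for the interaction; the block changed no other count. With only the groups compared in the fit, 2 were called for AG494 in APP cells and 1 for AG494 against NOSCA there. For AG494 against NOSCA in APP cells 5 were called when probe sets of a gene were averaged and 6 with array weights. Leaving out single arrays or, chosen after seeing the data, whole runs gave ranges of 7 to 7 for the genotype under AG494, 4 to 7 under NOSCA, 0 to 1 for PALBO in WT cells, 0 to 6 for AG494 in APP cells, 0 to 6 for AG494 against NOSCA there, 0 to 1 for PALBO against AG494, 0 to 1 for PALBO against NOSCA and 0 to 1 for the interaction. MX1 changed sign under AG494, at -0.02 after a further quantile normalisation and between -0.03 and 0.04 with arrays left out, and under NOSCA between -0.02 and 0.13. The genotype count under AG494 stayed between 6 and 7 in all 19 alternatives, and ISG15 was not called in any. Removing the dimmest 33.3% of genes took out MX1 and MX2. Except where an alternative has fewer arrays or genes, the cause of these shifts was not tested. Shares of all genes called are given for the replicate block alone, so the other counts cannot be set against the whole table. Low intensity limits MX1 and, in part, MX2.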
